A study of Mus musculus with 2 samples.

Results

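The cell cycle genes described here are 48 mouse genes, taken by symbol from a list set for this description, out of 28001 features measured in single cells of the regenerating digit tip. The 25 G2/M genes are transcribed mainly while a cell prepares for and passes through mitosis, the 17 S genes around DNA replication, and 6 more genes (Ccnd1, Ccnd2, Ccnd3, Stmn1, Hmgb2 and Cdkn1a) belong to neither list. All 48 symbols were found. The tissue was the part of the digit tip that had regrown by day 14 after amputation, dissected from adult mice of 10 to 12 weeks, and each of 2 lines gave 1 droplet library of 3′ transcript ends. One library came from PdgfraCreERT;R26-LSL-TdT mice and the other from Lmx1bCreERT2;R26-LSL-TdT mice, called the Pdgfra and the Lmx1b library below. In both lines a tamoxifen-activated Cre recombinase, expressed where Pdgfra or Lmx1b is active, switches on the red fluorescent protein TdTomato from the Rosa26 locus. All mice of both lines received tamoxifen at 3 mg per day for 4 days by intraperitoneal injection and were amputated 10 days later, so there was no library without Cre, tamoxifen or amputation. The number of mice pooled per library is not given in the sources used here. With 1 library per line no difference could be tested. Library, mouse line, animals and sequencing depth cannot be told apart between the libraries, and every interval below is an exact 95% interval that covers counting error only.

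A cell that commits to divide accumulates D-type cyclins, which with CDK4 and CDK6 inactivate the retinoblastoma protein and release E2F factors. E2F targets, such as the MCM helicase and the enzymes that make deoxynucleotides, serve DNA replication in S phase. Later the cyclin B and CDK1 kinase, the Aurora and Polo-like kinases and the proteins of centromere and spindle carry the cell through mitosis, and the anaphase-promoting complex, with CDC20 and UBE2C, ends it. In a digit tip regenerate a blastema of dividing connective tissue cells, together with vessels, nerve-associated Schwann cells, immune cells and nail epithelium, rebuilds bone and nail.

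Promoters of G2/M and S genes are known for different short motifs, and 5 promoters of genes described below are printed as examples that hold them. RefSeq windows on GRCm38.p6, from 250 bases before to 50 after a gene start, were found for 39 of the 48 genes (44 windows). Both strands were searched for the cell cycle homology region (CHR, TTTGAA or TTCGAA), the CCAAT box (CCAAT) and an E2F element (TTTCCCGC or TTTGGCGC), and 1 pair of matches to different motifs shared bases. The stretches below are the 150 bases before the start, with every match to these motifs in capitals, read 5′ to 3′ on the strand of the gene. They lie at chr10:69352913-69353062 for Cdk1, chr11:99024190-99024339 for Top2a and chr1:128359706-128359855 for Mcm6, on the minus strand, and at chr2:164769779-164769928 for Ube2c and chr8:75109359-75109508 for Mcm5, on the plus strand.
Cdk1: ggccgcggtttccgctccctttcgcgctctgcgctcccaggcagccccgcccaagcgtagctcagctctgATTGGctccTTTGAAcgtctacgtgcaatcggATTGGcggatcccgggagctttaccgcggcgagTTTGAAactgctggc
Top2a: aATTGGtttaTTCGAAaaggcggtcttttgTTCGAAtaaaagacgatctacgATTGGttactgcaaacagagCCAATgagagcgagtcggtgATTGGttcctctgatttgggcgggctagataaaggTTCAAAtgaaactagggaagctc
Ube2c: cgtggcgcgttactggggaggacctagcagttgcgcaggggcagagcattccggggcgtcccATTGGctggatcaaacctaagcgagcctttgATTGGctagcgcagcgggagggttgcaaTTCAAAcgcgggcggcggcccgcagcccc
Mcm6: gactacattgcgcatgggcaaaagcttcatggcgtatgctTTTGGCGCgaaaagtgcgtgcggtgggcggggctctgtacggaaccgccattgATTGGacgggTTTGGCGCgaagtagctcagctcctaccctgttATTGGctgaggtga
Mcm5: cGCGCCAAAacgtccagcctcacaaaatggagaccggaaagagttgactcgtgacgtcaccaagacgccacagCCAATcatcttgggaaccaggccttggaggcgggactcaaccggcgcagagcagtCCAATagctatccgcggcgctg
Cdk1, Top2a and Ube2c, all G2/M genes, held CHR letters with CCAAT boxes, whereas Mcm6 and Mcm5, both S genes, held E2F letters with CCAAT boxes. CHR letters stood in 19 of 23 windows of G2/M genes (82.6%) and in 2 of 16 windows of S genes, against 19.2% of all 32851 windows. The E2F letters stood in 6 of 16 windows of S genes (37.5%), in 0 of 23 windows of G2/M genes and in 1.56% of all windows. A CCAAT box stood in 20 of 23 windows of G2/M genes and 11 of 16 of S genes, against 37.4% of all windows. These are matches of letters, not sites shown to be bound.

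Values are given for the Lmx1b library first and the Pdgfra library second. The libraries held 5991 and 5032 barcodes with 66867027 and 49084751 UMIs (unique molecular identifiers, 1 per captured transcript molecule). Cells were used from 500 genes and 5000 UMIs upward, with mitochondrial UMIs up to 10%, 2212 and 1402 of them, at a median of 21526 and 20936 UMIs, and 1 barcode was shared by used cells of both libraries. Cell classes were set per cell from marker scores, none of which uses a cell cycle gene. Cells passing the gates of 2 classes (47 and 69) or of none (47 and 31) were left out. The mesenchymal gate was 2.4, but a cell in another gate counted as also mesenchymal only from a mesenchymal score of 2.8. Chondrocytes were kept whatever their mesenchymal score. Cells passing both the osteoclast and the macrophage gate were taken as osteoclasts, and those passing both the macrophage and the dendritic gate as macrophages. Cells within 0.2 of a gate numbered 3 of 568 and 1 of 251 for endothelial cells and 26 of 912 and 10 of 527 for mesenchymal cells. In chondrocytes the median mesenchymal score was 2.88 and 2.89, so this class is a range within the connective tissue rather than a sharply separated type. The mural class had a median mesenchymal score of 1.80 and 2.03, and the gates named by Cilp2 and Thbs4 and by Mest and Gldn are ranges too, with 86 of 193 and 55 of 89 cells, and 14 of 64 and 21 of 79 cells, within 0.2 of the cut.

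The share of cycling cells was higher in endothelial cells, macrophages, Schwann cells and keratinocytes than in mesenchymal cells of the same library. Each cell was thinned to 5000 UMIs and called cycling at 2 or more UMIs from the 25 G2/M genes. By this call 8.33% (76 of 912 cells, 6.62 to 10.3%) and 7.02% (37 of 527 cells, 4.99 to 9.55%) of mesenchymal cells, the collagen-rich connective tissue cells that include the blastema, were cycling. Among endothelial cells, which line the vessels, the share was 15.1% (86 of 568 cells, 12.3 to 18.4%) and 13.5% (34 of 251 cells, 9.57 to 18.4%). In each library the endothelial share lay above the mesenchymal one, and the libraries' shares for either class lay within each other's intervals. Mural cells, the pericytes and smooth muscle around vessels, were at 11.8% (36 of 304 cells, 8.43 to 16.0%) and 11.2% (23 of 205 cells, 7.25 to 16.4%). These mural shares did not lie stably above the mesenchymal ones: in the Pdgfra library they fell below under 4 of 9 alternatives, among them another random thinning to the same depth (7.80% against 8.54%). Macrophages reached 26.7% (23 of 86 cells, 17.8 to 37.4%) and 23.8% (20 of 84 cells, 15.2 to 34.3%). Schwann cells, the glia of peripheral nerves, reached 16.1% (5 of 31 cells, 5.45 to 33.7%) and 25.4% (16 of 63 cells, 15.3 to 37.9%). Macrophages and Schwann cells thus exceeded mesenchymal cells in both libraries, though the Schwann interval of the Lmx1b library overlapped the mesenchymal one, and 0 of 8 Schwann cells there were cycling under a stricter cell filter. Keratinocytes were at 22.9% (16 of 70 cells, 13.7 to 34.4%) and 47.2% (25 of 53 cells, 33.3 to 61.4%), the highest of the 7 classes in the Pdgfra library, while macrophages were highest of the 7 in the Lmx1b library. Small gates outside the 7 reached higher, with 4 of 14 T and NK cells in the Lmx1b library and 7 of 14 dendritic cells in the Pdgfra library. Chondrocytes were lowest of the 7, with 1 of 92 cells (interval to 5.91%) and 3 of 51 cells (interval to 16.2%). The Pdgfra value was not stable. With classes taken from clusters instead of gates it was 0, but under 4 of 9 alternatives it lay above the mesenchymal share. With another random thinning to the same depth it was 9.80% against 8.54%. When cells needed 1000 genes and no more than 5% mitochondrial UMIs, the endothelial share of the Lmx1b library was 25.9%, over the 81 cells that were left.

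**Figure D1:**
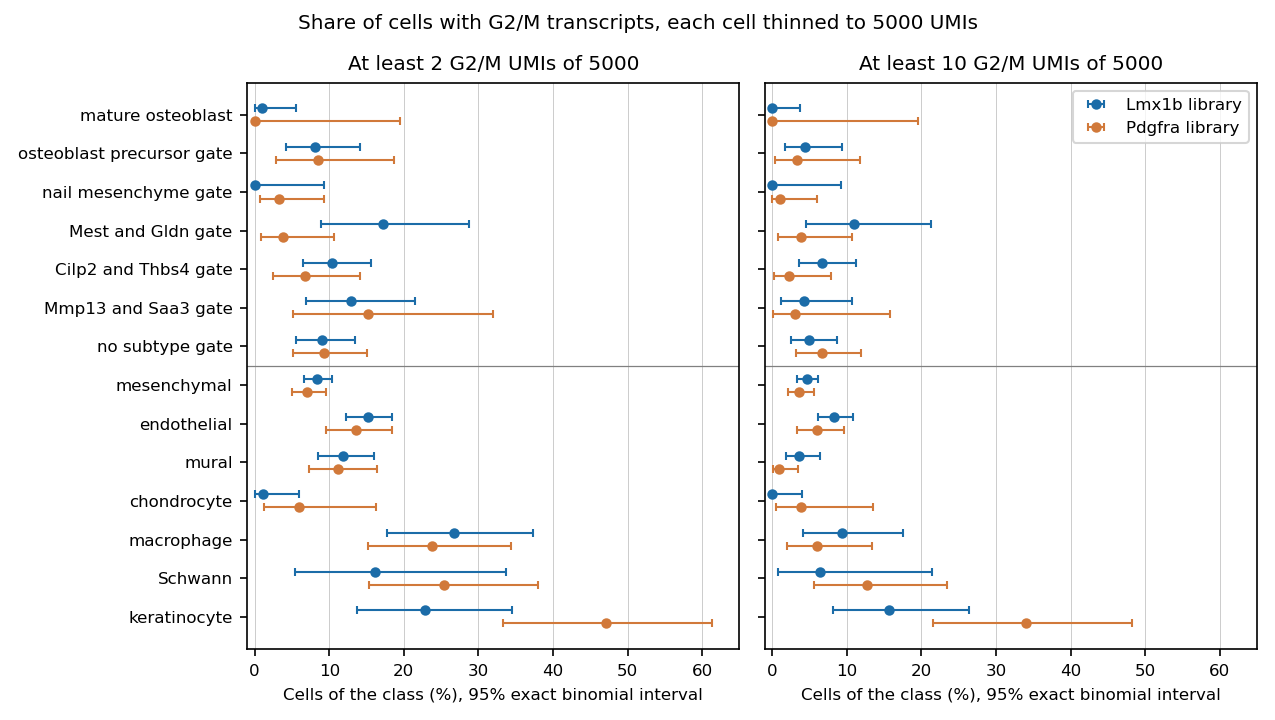
Percentage of cells called cycling in each class (rows) and library (colours) at 2 or more G2/M UMIs (left) and at 10 or more (right), every cell thinned to 5000 UMIs; bars are exact 95% binomial intervals. Rows above the grey line are the mesenchymal subtype gates and the mesenchymal cells in none of them. The Angpt2 and Fmo2 gate, which had 8 cells in the Pdgfra library, is not shown. Mature osteoblasts and chondrocytes of the Lmx1b library sit near 0 and keratinocytes of the Pdgfra library reach 47.2%.

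The endothelial share stayed above the mesenchymal one by a stricter call, but with overlapping intervals. At 10 or more G2/M UMIs, a cut set after the values had been seen, 4.61% and 3.61% of mesenchymal, 8.27% and 5.98% of endothelial and 15.7% and 34.0% of keratinocyte cells remained. The mesenchymal intervals were 3.34 to 6.17% and 2.18 to 5.57%. The endothelial ones, 6.14 to 10.9% and 3.38 to 9.67%, overlapped them in each library. Mural cells were the exception. Their strict share was 3.62% (11 of 304 cells, 1.82 to 6.38%) and 0.976% (2 of 205 cells, 0.118 to 3.48%), below the mesenchymal share in each library. Macrophages were at 9.30% (8 of 86 cells, 4.10 to 17.5%) and 5.95% (5 of 84 cells, 1.96 to 13.3%). Of the cycling cells, 8 of 23 and 5 of 20 macrophages reached the stricter call, as did 11 of 16 and 18 of 25 keratinocytes.

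Within the mesenchyme the shares ran from near 0 to 17.2%. Mature osteoblasts, the bone-forming cells that express osteocalcin, had 1 cycling cell of 98 and 0 of 17, where 0 of 17 has an exact upper limit of 19.5%. Cells of the osteoblast precursor gate, marked by C1qtnf3, Adamts18 and Panx3, were at 8.15% (11 of 135 cells, 4.14 to 14.1%) and 8.47% (5 of 59 cells, 2.81 to 18.7%). Bone precursors therefore had a share close to that of the whole mesenchyme, and the mature cells of the Lmx1b library lay below it. The nail mesenchyme gate (Sfrp2, Rspo4, Corin) held 0 cycling cells of 38 and 3 of 91, with upper limits of 9.25% and 9.33%. The gate named by Cilp2 and Thbs4 was at 10.4% (20 of 193 cells, 6.45 to 15.6%) and 6.74% (6 of 89 cells, 2.51 to 14.1%). The gate named by Mmp13 and Saa3 was at 12.9% (12 of 93 cells, 6.85 to 21.5%) and 15.2% (5 of 33 cells, 5.11 to 31.9%). In each library the intervals of both gates held the share of the whole mesenchyme, although the Mmp13 and Saa3 value of the Pdgfra library, on 33 cells, was over 2 times the mesenchymal one. The gate named by Mest, an imprinted gene of embryonic mesenchyme, and Gldn differed most between libraries, at 17.2% (11 of 64 cells, 8.90 to 28.7%) and 3.80% (3 of 79 cells, 0.790 to 10.7%). Of 68 cells of the Angpt2 and Fmo2 gate in the Lmx1b library 1 was cycling, and all 45 G2/M UMIs of that cell before thinning came from a single gene, Ccnb1 (cyclin B1). Mesenchymal cells in none of the gates were the largest part, at 8.97% (20 of 223 cells, 5.56 to 13.5%) and 9.27% (14 of 151 cells, 5.16 to 15.1%). They held 20 of the 76 and 14 of the 37 cycling mesenchymal cells. Of the mesenchymal cells at 10 or more G2/M UMIs they held 11 of 42 and 10 of 19.

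The call depends on depth, so shares were compared at 1 depth only. Without thinning, 34.1% and 38.0% of mesenchymal cells and 18.4% and 11.8% of mature osteoblasts had 2 or more G2/M UMIs. Among groups of at least 50 cells, the lowest thinned shares, picked after the values were seen, were 1.02% in Lmx1b mature osteoblasts (median 29627 UMIs before thinning) and 1.09% in Lmx1b chondrocytes (median 48340), where mesenchymal cells had a median of 28058 UMIs. Osteoclasts, multinucleated cells that do not divide, were the class meant as a background, but the gate held 12.5% (3 of 24 cells, 2.66 to 32.4%) and 33.3% (11 of 33 cells, 18.0 to 51.8%) at median depths of 42208 and 39150 UMIs and so gave no clean background. The neutrophil gate held 4 cells, 0 of them cycling. Barcodes under 500 genes carried 381 and 392 CPM of G2/M transcripts (CPM, a gene's part of all UMIs of a group, scaled to a common total), against 678 and 579 CPM in the used cells.

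Cells with few and with many G2/M UMIs differed in which gene supplied them. In the 102 and 83 cells at 2 to 4 G2/M UMIs, Cenpa, the centromeric histone, made up 27.0% and 22.2% of these UMIs. At 10 or more the leading gene was Ube2c in the Lmx1b library, with 7.75% of the UMIs, close to Cenpf and Birc5 at 7.50% each and Top2a at 7.48%. In the Pdgfra library Top2a led, with 8.97%. Another 20 G2/M genes, none of which enters the call, served as a check of the stricter call. Of these, 2 or more of their UMIs stood in 129 of 132 and 88 of 89 cells at 10 or more (mixed and ungated cells included), and in 6.93% and 13.7% of cells at 0. Cells at 10 or more were deeper before thinning than cells at 0, 1.47 and 1.2 times in the mesenchyme and 1.77 and 1.32 times in the endothelium. Few cells held most of the mitotic transcripts. In the mesenchyme 14 and 7 cells held 50% of all G2/M UMIs, and the cells at 10 or more held 88.3 and 75.1%. In the endothelium 13 and 6 cells held 50% and the cells at 10 or more 91.3 and 80.2%. A summed G2/M level thus rests on few cells, and its Poisson interval, which takes UMIs as independent, is too narrow.

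Most G2/M genes, whatever the role of the protein, were highest in the same classes. Keratinocytes had the highest level of 20 and 19 of the 25 genes, among the 7 classes, and Schwann cells of 4 and 6. Chondrocytes were lowest for all 25 in the Lmx1b library, and mural cells for 19 in the Pdgfra library. Summed over the 25 genes, the level was 530.5 and 334 CPM in mesenchymal, 1032 and 557 CPM in endothelial and 491 and 203 CPM in mural cells. It was 978 and 355 CPM in macrophages, 1259.9 and 1883 CPM in Schwann cells and 2002 and 2209 CPM in keratinocytes. In chondrocytes it was 22.1 and 546 CPM, where 1153 of the 1482 G2/M UMIs of the Pdgfra library came from 1 cell. In Schwann cells of the Lmx1b library 1 of 31 cells held 357 of the 512 G2/M UMIs, so their level there rests largely on that cell.

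Top2a, the topoisomerase that untangles replicated chromosomes, had the highest mean level of the list. It measured 47.8 and 31.6 CPM in mesenchymal, 70.1 and 48.1 in endothelial, 38.7 and 15.9 in mural and 2.41 and 37.6 CPM in chondrocyte cells. The first measured 45.3 to 50.5 and 29.1 to 34.3 CPM by its counting intervals. The levels were 73.5 and 24.4 CPM in macrophages, 98.4 and 231 in Schwann cells and 191 and 201 in keratinocytes. Of the 40 Top2a UMIs of Lmx1b Schwann cells, 37 came from 1 cell. Keratinocytes stood above mesenchymal cells in both libraries, and mature osteoblasts (1.93 and 0 CPM) and Lmx1b chondrocytes near 0. Mki67, which coats mitotic chromosomes, kept this order of classes in the Lmx1b library, with 34.2 and 21.5 CPM in mesenchymal, 56.6 and 37.1 in endothelial and 29.0 and 11.4 in mural cells. In the other classes Mki67 was at 0.481 and 29.5 CPM (chondrocytes), 79.3 and 36.4 (macrophages), 108 and 174 (Schwann cells) and 181 and 169 CPM (keratinocytes). Cenpf, a kinetochore protein, was at 32.9 and 24.4 CPM in mesenchymal, 89.3 and 40.2 in endothelial, 22.6 and 9.53 in mural and 0.722 and 64.8 CPM in chondrocyte cells. Macrophages parted the libraries for Cenpf, at 32.8 and 5.19 CPM, while Schwann cells (101 and 156 CPM) and keratinocytes (176 and 248 CPM) were high in both. Among the mitotic kinases and their cyclins, Cdk1 was at 31.5 and 21.1 CPM and Aurkb, of the chromosomal passenger complex, at 9.94 and 5.50 CPM in mesenchymal cells, against 69.4 and 101 and 22.4 and 37.7 CPM in keratinocytes. Cdc20 and Ube2c, which end mitosis through the anaphase-promoting complex, were at 131 and 139 and at 96.2 and 158 CPM in keratinocytes, against 21.2 and 11.5 and 35.3 and 17.6 CPM in the mesenchyme. Kif11 and Kif23, spindle kinesins, were at 41.4 and 33.9 and at 36.9 and 33.9 CPM in keratinocytes, against 10.8 and 6.11 and 10.1 and 6.33 CPM in the mesenchyme. All of these genes were higher in keratinocytes than in mesenchymal cells of the same library.

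**Figure D2:**
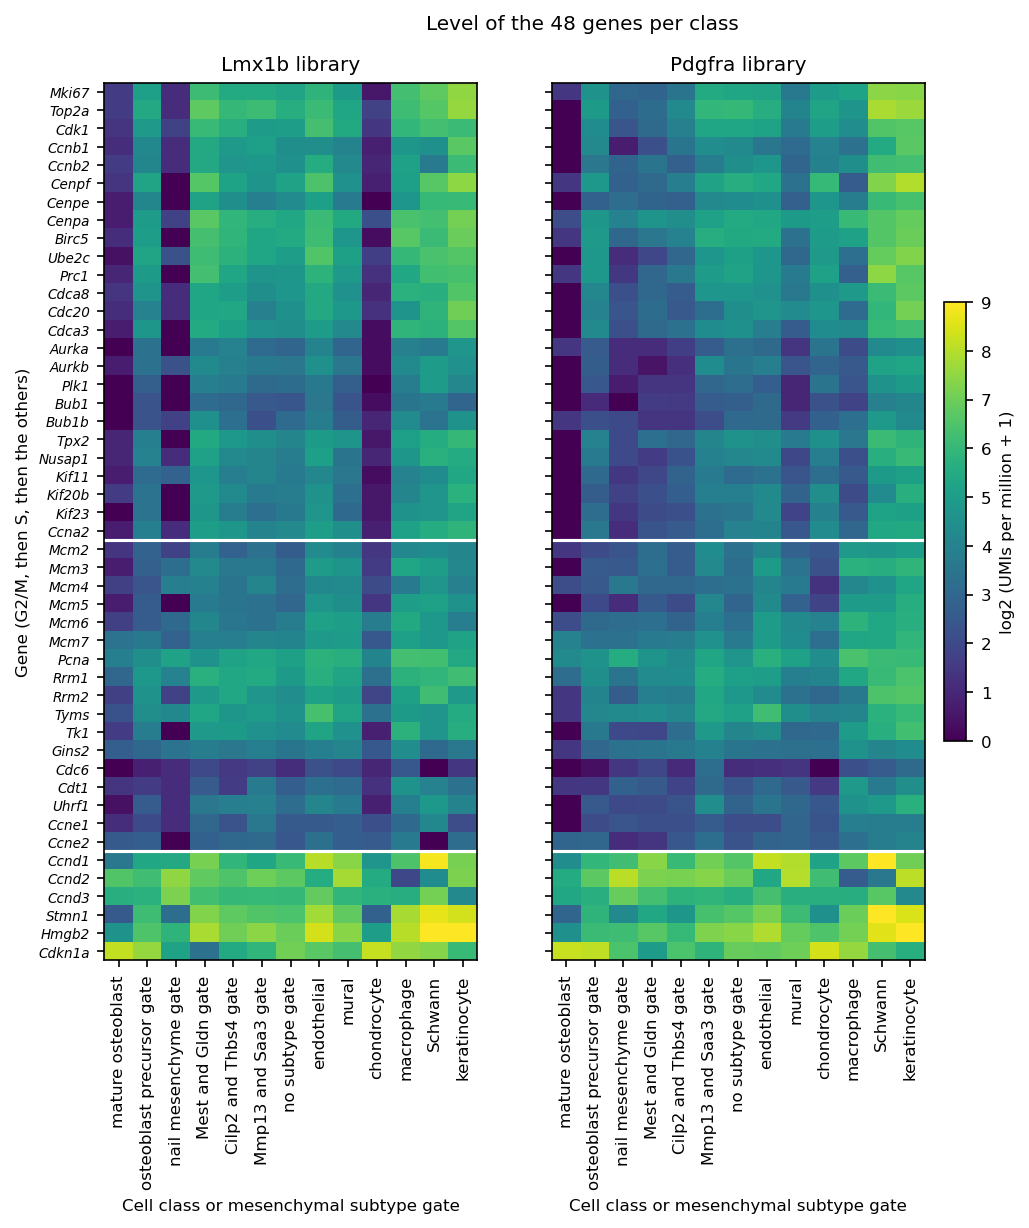
Level of each of the 48 genes (rows: 25 G2/M, 17 S, 6 others) in each class or mesenchymal subtype gate (columns), as log2 (CPM + 1), for each library. The G2/M block is dark in mature osteoblasts and Lmx1b chondrocytes and brightest in Schwann cells and keratinocytes, while Ccnd1, Ccnd2 and Cdkn1a at the bottom follow other patterns.

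S genes were led by more classes than G2/M genes. Macrophages had the highest level of 8 and 5 of the 17 S genes, keratinocytes of 2 and 11, Schwann cells of 6 and 0 and endothelial cells of 1 each. The 6 Schwann leads of the Lmx1b library rest on 31 cells and few UMIs. For Rrm2, Uhrf1, Mcm5 and Mcm4 the top cell of each gene held 26 of 30, 9 of 11, 8 of 14 and 6 of 10 UMIs. Mcm2 and Ccne1 had 8 and 7 UMIs there. Summed over the 17 genes, the level was 208 and 177 CPM in mesenchymal, 467 and 376 in endothelial, 367 and 194 in mural, 507 and 504 in macrophage, 489.7 and 622 in Schwann and 407 and 803 CPM in keratinocyte cells. Among the 7 classes, keratinocytes and Schwann cells thus led the summed S level in the Pdgfra library, as they did the G2/M level. Macrophages and Schwann cells led it in the Lmx1b library. Of smaller gates outside the 7, the Pdgfra osteoclast gate (33 cells) was at 645 CPM and the Lmx1b T and NK gate (14 cells) at 549 CPM. The ratio of S to G2/M UMIs was 0.39 and 0.53 in mesenchymal cells and 0.45 and 0.68 in endothelial cells. Mural cells had a ratio of 0.75 and 0.95, macrophages of 0.52 and 1.42, Schwann cells of 0.39 and 0.33 and keratinocytes of 0.20 and 0.36. Mature osteoblasts had a ratio of 2.52 and 4.75, at G2/M levels of 23.5 and 13.4 CPM. In cells at 10 or more G2/M UMIs it was 0.19 and 0.13 in the mesenchyme and 0.24 and 0.26 in the endothelium.

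S levels were also taken without the cells at 10 or more G2/M UMIs. These cells were picked for their G2/M UMIs, so the fall in the G2/M level is set by the choice and is not compared with the fall in S. Leaving them out lowered the summed G2/M level of the mesenchyme to 66.9 and 87.3 CPM and its S level to 131 and 144 CPM. The endothelium kept 106 and 120.3 CPM of G2/M and 292 and 278 CPM of S transcripts. The mural class kept 278 and 174 CPM and macrophages 286 and 406 CPM of S transcripts. Endothelial cells and macrophages thus stayed above mesenchymal cells in S transcripts, in both libraries, without their cells at 10 or more. In cells with 0 G2/M UMIs at 5000 UMIs, the mean number of S UMIs was 0.521 (0.469 to 0.577) and 0.583 (0.512 to 0.661) in mesenchymal cells. Endothelial cells had 0.935 (0.839 to 1.04) and 0.938 (0.793 to 1.10). Keratinocytes were at 0.804 and 3.89, and in the Pdgfra library 9 of 53 keratinocytes had 5 or more S UMIs with fewer than 2 G2/M UMIs, against 2 of 527 mesenchymal cells there. The Lmx1b library had 4 of 70 such keratinocytes and 0 of 912 such mesenchymal cells.

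**Figure D3:**
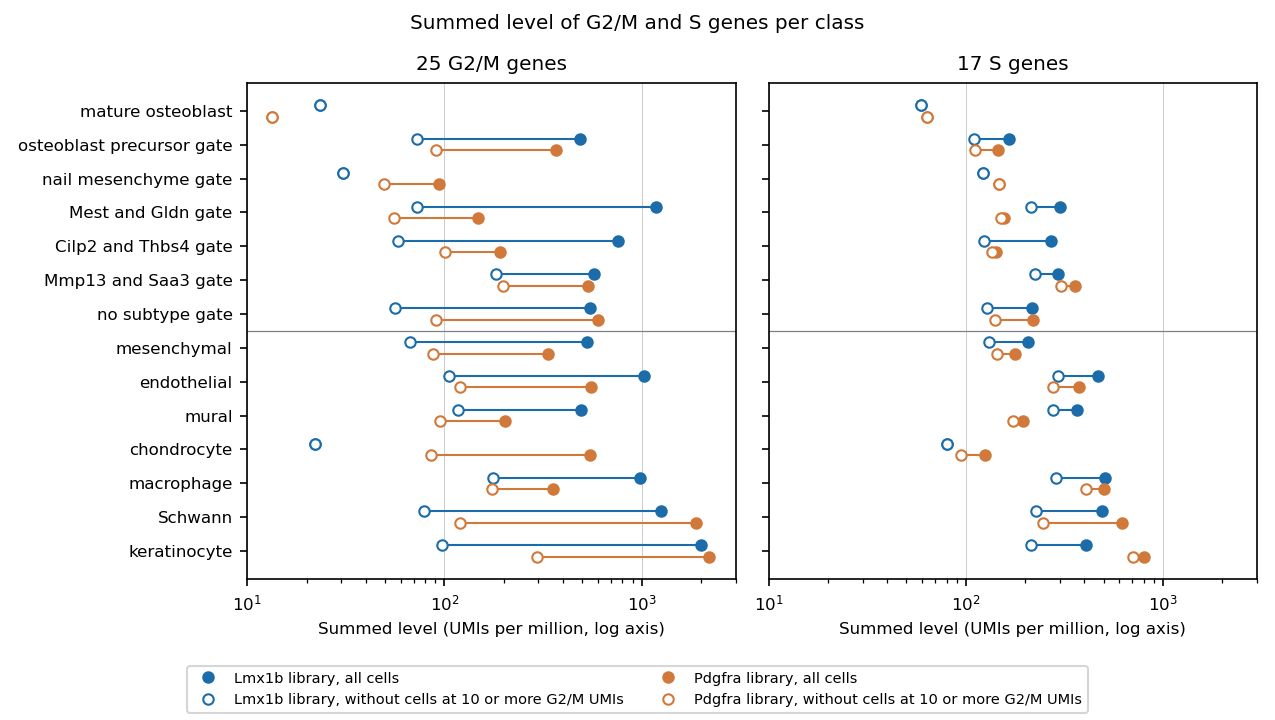
Summed level of the 25 G2/M genes (left) and the 17 S genes (right) per class, in CPM on a log axis; filled points are all cells, open points leave out cells at 10 or more G2/M UMIs, and a line joins the 2 values. The length of the G2/M lines follows from how the cells were picked; in the S panel the open points of endothelial cells (292 and 278 CPM) stay right of the mesenchymal ones (131 and 144 CPM).

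Pcna, the sliding clamp of DNA polymerase, had the highest mean level of the S genes. It was at 29.5 and 25.9 CPM in mesenchymal, 54.2 and 51.7 in endothelial, 49.5 and 34.6 in mural, 15.9 and 20.3 in chondrocyte and 79.3 and 83.6 CPM in macrophage cells, with 76.3 and 69.7 in Schwann cells and 42.0 and 67.7 in keratinocytes. Rrm1, the large subunit of ribonucleotide reductase, was at 30.5 and 23.9 CPM in mesenchymal, 49.1 and 31.0 in endothelial, 37.6 and 13.7 in mural and 8.91 and 15.8 CPM in chondrocyte cells. In macrophages, Schwann cells and keratinocytes Rrm1 was at 54.4 and 40, at 59.1 and 65.6 and at 74.4 and 86.2 CPM. Macrophages led for Pcna and keratinocytes for Rrm1 in both libraries. Tyms, which makes thymidylate, was instead highest in the endothelium, at 81.9 and 75.5 CPM, against 22.2 and 23.2 in mesenchymal, 37.1 and 21.3 in mural, 9.39 and 15.5 in chondrocyte, 29.1 and 16.1 in macrophage, 24.6 and 52.5 in Schwann and 45.9 and 64.5 CPM in keratinocyte cells.

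Endothelial cells exceeded mesenchymal cells in replication and in mitotic genes. Genes were compared by summed UMIs where both classes together reached 5 CPM, and counted at a ratio of 2 or more. A gene under 5 CPM in 1 class could pass this cut through the other class alone, and it then tended to count as higher there. This holds for all counts of genes below. Of the measured S genes 9 of 15 and 7 of 13 were at least 2-fold higher in endothelial cells and 0 lower, and of the G2/M genes 9 of 25 and 7 of 22 were, against 17.3% and 17.3% of all genes. Median log2 ratios were 0.98 and 0.99 for S and 0.90 and 0.73 for G2/M genes, against 0.30 and 0.27 for all measured genes. Mcm6 of the MCM helicase was 3.76-fold (3.19 to 4.43) and 3.76-fold (2.95 to 4.79) higher, at 34.8 and 30.5 against 9.26 and 8.11 CPM. Mcm5 and Mcm3 of the same ring were 3.74-fold and 3.70-fold, and 3.52-fold and 4.04-fold higher, and Tyms was 3.70-fold (3.33 to 4.11) and 3.25-fold (2.81 to 3.76) higher. These 4 genes had like ratios in both libraries. For Rrm2, the small subunit of ribonucleotide reductase, and Gins2, of the replicative helicase, the ratios were 1.49 and 1.08, and 1.42 and 0.964. Among G2/M genes Aurkb was 2.21-fold (1.84 to 2.65) and 2.47-fold (1.76 to 3.43) and Kif23, a kinesin of the midbody, 2.49-fold (2.09 to 2.96) and 2.78-fold (2.06 to 3.74) higher, whereas Ccnb1 had ratios of 0.953 and 0.861. With classes taken from clusters, the G2/M count of the Pdgfra library was 0.

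Without the cells at 10 or more G2/M UMIs Mcm6, Mcm5 and Tyms stayed over 3-fold higher in endothelial cells. Of the S genes 6 of 12 and 7 of 11 measured were then at least 2-fold higher there, beside 17.5% and 17.4% of all genes, and of the G2/M genes 1 of 3 and 1 of 5, since most no longer reached 5 CPM. Mcm6 was 3.95 and 3.62-fold, Mcm5 4.16 and 3.84-fold and Tyms 4.70 and 3.30-fold higher. Mcm5 was then at 3.64 and 3.85 CPM in mesenchymal cells and passed the 5 CPM cut only through endothelial cells. Rrm2 had ratios of 0.907 and 0.424, lower in the endothelium of the Pdgfra library.

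**Figure D4:**
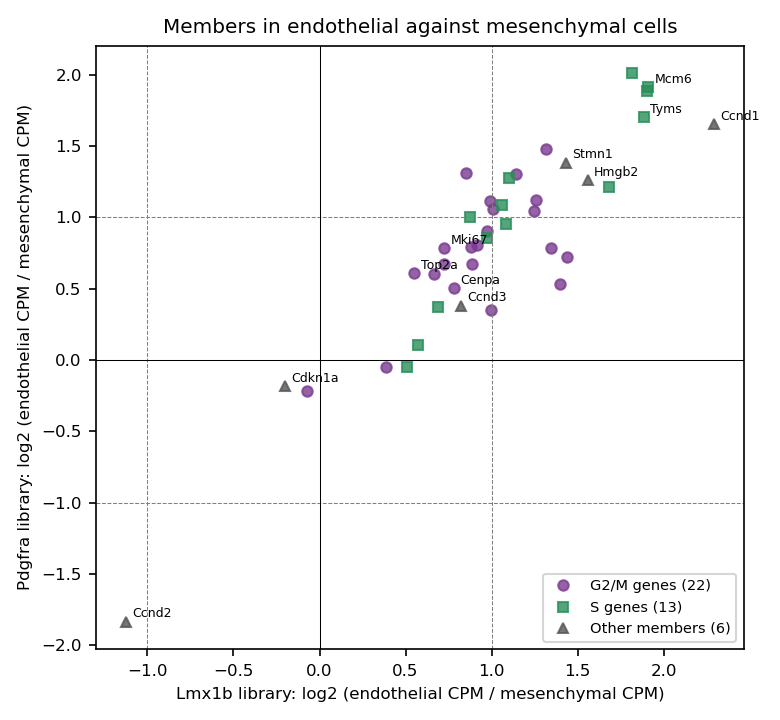
Log2 ratio of the endothelial to the mesenchymal level of each member measured in both libraries (22 G2/M, 13 S and 6 other genes), Lmx1b library on the x axis and Pdgfra library on the y axis; dashed lines mark 2-fold. Mcm6, Tyms and Ccnd1 lie in the upper right corner, Ccnd2 alone in the lower left, and most G2/M genes between 0 and 1.5.

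The other classes were set against the same mesenchymal cells, so these comparisons are not independent of each other. In mural cells 6 of 14 and 1 of 13 S genes were at least 2-fold higher (all genes: 10.3% and 9.48%), while 0 of 24 and 6 of 21 G2/M genes were at least 2-fold lower (all genes: 10.5% and 11.1%). In macrophages 10 of 15 and 11 of 14 S genes were higher (all genes: 14.6% and 14%). Their G2/M genes parted the libraries, with 8 of 24 higher in the Lmx1b library and 1 of 21 higher and 4 of 21 lower in the Pdgfra library, against 25.9% of all genes lower there. Cdt1, which licenses replication origins, had the largest macrophage ratio of the members in both libraries, 5.83-fold (4.15 to 8.10) and 7.32-fold (5.03 to 10.6). Cdt1 was at 3.99 and 3.83 CPM in mesenchymal cells and passed the 5 CPM cut only through macrophages, which favours its high rank. Replication genes were thus higher in macrophages of both libraries, and in mural cells mainly of the Lmx1b library. In keratinocytes 24 of 24 and 23 of 23 measured G2/M genes and 7 of 14 and 15 of 15 S genes were at least 2-fold higher (all genes: 12.2% and 13.6%). In Schwann cells 16 of 24 and 24 of 24 G2/M and 9 of 14 and 12 of 13 S genes were (all genes higher: 21.1% and 17%). Of the S genes 1 of 14 was lower in the Lmx1b library. The Lmx1b values rest on 31 cells, with 2 cells at 10 or more G2/M UMIs, 1 of which held 69.7% of the G2/M UMIs. In the Pdgfra library Aurka, Plk1 and Bub1b, at 4.44, 4.11 and 3.78 CPM in mesenchymal cells, passed the 5 CPM cut only through Schwann cells. In Lmx1b chondrocytes 24 of 24 G2/M genes and 11 of 14 S genes were at least 2-fold lower (all genes: 23.8%). All G2/M genes were at or below 3.61 CPM in these chondrocytes, so the measured ones passed the 5 CPM cut only through mesenchymal cells. In Pdgfra chondrocytes 7 of 22 G2/M genes were higher (all genes: 3.92%), where 2 of 51 cells at 10 or more held 85.2% of the UMIs.

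The D-type cyclins, which start the cycle, were present in different proportions in the classes. Ccnd1 was at 53.5 and 90.4 CPM in mesenchymal, 262 and 285 in endothelial, 168 and 248 in mural and 25 and 35.4 CPM in chondrocyte cells, and at 88.0 and 105 in macrophages, 470 and 557 in Schwann cells and 141 and 131 in keratinocytes. Schwann cells were highest and chondrocytes lowest in both libraries, and the endothelium was 4.90-fold (4.60 to 5.23) and 3.15-fold (2.92 to 3.39) above the mesenchyme. Ccnd2 was at 102 and 142 CPM in mesenchymal, 46.8 and 39.8 in endothelial, 221 and 253 in mural, 46.0 and 75.5 in chondrocyte and 149 and 276 CPM in keratinocyte cells, and lowest in macrophages (2.91 and 5.19) and Schwann cells (19.7 and 11.1). The 2 genes ran opposite ways between endothelium and mesenchyme, where Ccnd2 had ratios of 0.458 and 0.280, also without the cells at 10 or more G2/M UMIs (0.473 and 0.290). Ccnd3 varied least, at 64.1 and 61.2 CPM in mesenchymal, 113 and 79.8 in endothelial, 59.5 and 49.6 in mural, 51.5 and 49.4 in chondrocyte, 47.3 and 47.3 in macrophage, 138 and 101 in Schwann and 17.9 and 17.9 CPM in keratinocyte cells. Among mesenchymal gates Ccnd1 was highest in the Mest and Gldn gate, at 142 and 167 CPM, and lowest in mature osteoblasts, at 11.3 and 20.1 CPM. The nail mesenchyme gate, with few or no cycling cells, had the highest Ccnd2 (179 and 267 CPM) and Ccnd3 (148 and 119 CPM) of the gates. Levels of Ccnd2 and Ccnd3 and cycling shares therefore did not rank the mesenchymal gates alike. Ccnd1 was highest in the gate that also had the highest share in the Lmx1b library (17.2%), but that gate's share was 3.80% in the Pdgfra library.

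The E-type cyclins, partners of CDK2 at the entry to S phase, were low everywhere. Ccne1 was at 4.63 and 3.50 CPM in mesenchymal, 4.87 and 3.39 in endothelial, 5.48 and 6.67 in mural, 3.61 and 4.05 in chondrocyte and 7.48 and 13.5 CPM in macrophage cells, with 17.2 and 13.1 in Schwann cells and 3.36 and 12.8 in keratinocytes. Ccne2 was at 5.38 and 4.33 CPM in mesenchymal, 8.95 and 6.33 in endothelial, 5.48 and 6.67 in mural, 5.05 and 4.79 in chondrocyte and 12.5 and 8.83 CPM in macrophage cells, with 0 and 13.1 in Schwann cells and 8.39 and 15.3 in keratinocytes. Most class ratios of Ccne1 and Ccne2 rest on few UMIs.

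**Figure D5:**
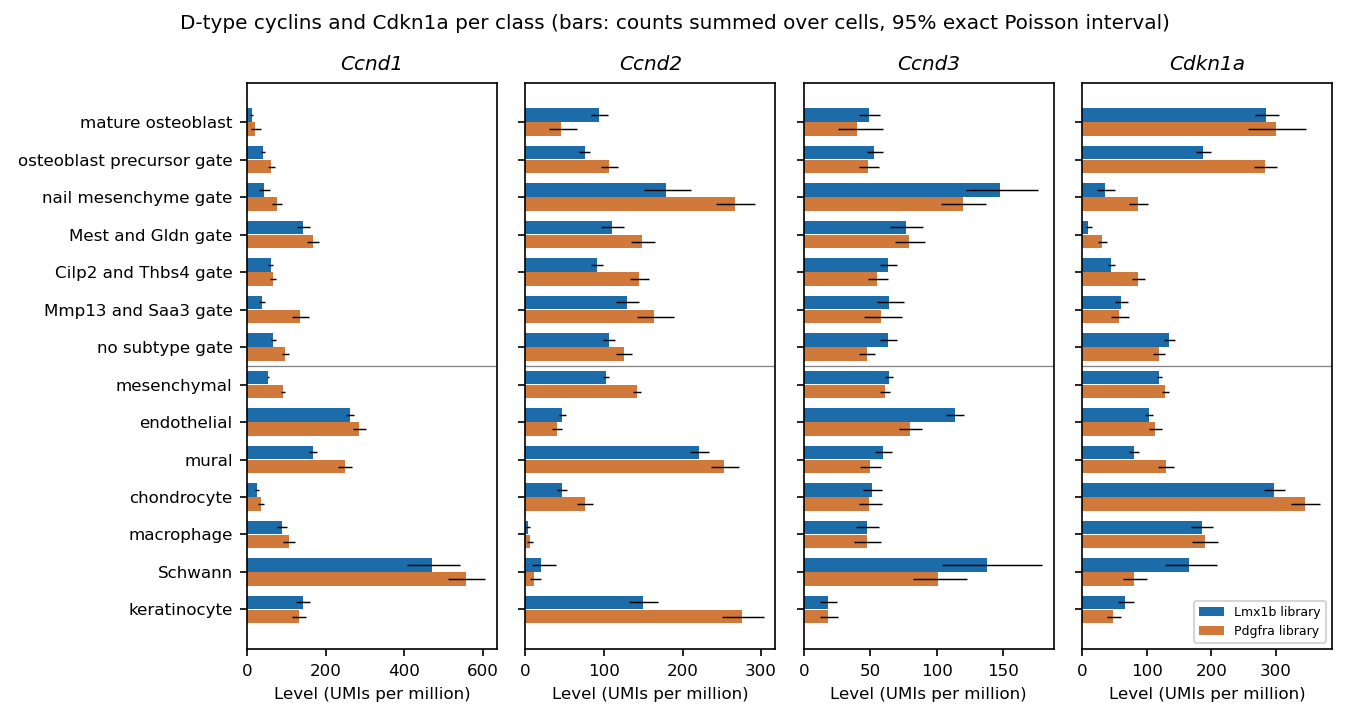
Level of Ccnd1, Ccnd2, Ccnd3 and Cdkn1a (CPM) in each class and mesenchymal subtype gate, 1 bar per library with its exact 95% Poisson interval. Ccnd1 bars are longest in Schwann and endothelial cells, Ccnd2 bars in mural cells, the nail mesenchyme gate and Pdgfra keratinocytes, and Cdkn1a bars in mature osteoblasts and chondrocytes.

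Cdkn1a, which encodes the CDK inhibitor p21, was highest in chondrocytes among the 7 classes and in mature osteoblasts among the mesenchymal gates. It was at 285 and 299.8 CPM in mature osteoblasts, 188 and 284 in the osteoblast precursor gate and 298 and 345 CPM in chondrocytes, and at 9.40 and 30.5 CPM in the Mest and Gldn gate. The Mest and Gldn gate was the lowest gate in both libraries. The nail mesenchyme gate, with 0 of 38 and 3 of 91 cycling cells, had 35.6 and 86.3 CPM. Levels elsewhere were 119 and 129 CPM in all mesenchymal, 104 and 113 in endothelial, 80.2 and 129.7 in mural and 185 and 189.6 CPM in macrophage cells, with 165 and 80.8 in Schwann cells and 66.6 and 48.5 in keratinocytes. Cdkn1c, the CDK inhibitor p57 and not one of the 48 genes, marked chondrocytes, at 714 and 755 CPM against 98.4 and 123 in mesenchymal cells. It was at 1.68 and 1.28 CPM in keratinocytes. Cdkn2b, the inhibitor p15, was at 26.8 and 34.3 CPM in mesenchymal cells and at 0.415 and 0.519 CPM in macrophages. Of the 6 CDK inhibitors listed beside the members, all measured, 3 and 5 were at least 2-fold lower in macrophages than in mesenchymal cells (all genes: 24% and 25.9%).

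Stmn1 and Hmgb2 were, like most G2/M genes, highest in Schwann cells or keratinocytes. Stmn1, a protein that destabilises microtubules, was at 79.0 and 55.4 CPM in mesenchymal, 213 and 145 in endothelial, 111 and 71.5 in mural and 6.02 and 22.1 CPM in chondrocyte cells, and at 227 and 125 in macrophages, 404 and 536 in Schwann cells and 335 and 357 in keratinocytes. Hmgb2, a chromatin protein of dividing cells, was at 116 and 102 CPM in mesenchymal, 341 and 245 in endothelial, 169 and 118 in mural and 31.0 and 90.6 CPM in chondrocyte cells, and at 261 and 137 in macrophages, 519 and 382 in Schwann cells and 889 and 936 in keratinocytes. Schwann cells led for Stmn1 and keratinocytes for Hmgb2 in both libraries. In the Lmx1b library 1 of 31 Schwann cells held 68 of their 164 Stmn1 UMIs. Without the cells at 10 or more G2/M UMIs, endothelial cells still had 57.1 and 61.5 CPM of Stmn1 against 19.0 and 22.9 in mesenchymal cells.

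Within a class, S genes, which the call does not use, were mostly higher in the cells at 10 or more G2/M UMIs than in those at 0 or 1. Counts of cells thinned to 5000 UMIs were summed for this comparison. Mesenchymal cells at 10 or more numbered 42 and 19, and 11 of 11 and 5 of 9 measured S genes were at least 2-fold higher in them, with 2 lower in the Pdgfra library (all genes: 9.02% and 11.3% higher, 26.6% lower in the Pdgfra library). In endothelial cells 15 of 15 and 13 of 13 were higher (all genes: 7.9% and 14%). Rrm1 was 13.7-fold (9.10 to 20.4) and 9.82-fold (5.16 to 17.8) higher in the mesenchyme and 12.8-fold (8.29 to 19.9) and 7.23-fold (3.17 to 15.6) higher in the endothelium. Pcna was 2.39-fold (1.19 to 4.36) higher in Lmx1b mesenchymal cells and had a ratio of 0.832 in the Pdgfra library, on 2 UMIs. Rrm2 and Tk1 (thymidine kinase) were far higher in these cells. Rrm2 was at 186 and 158 CPM against 5.74 and 5.71 CPM in the mesenchyme. Tk1 was at 214 and 84.2 CPM against 0.957 and 3.27 CPM, so it passed the 5 CPM cut only through the cells at 10 or more. The D-type cyclins did not follow. In the mesenchyme Ccnd1 had ratios of 0.804 and 1.22, Ccnd3 of 1.35 and 1.05 and Ccnd2 of 0.345 (0.148 to 0.685) and 0.338 (0.109 to 0.795), so Ccnd2 was lower in the cells at 10 or more of both libraries. Cdkn1a had ratios of 0.450 (0.231 to 0.792) and 0.474 (0.153 to 1.12) in the mesenchyme and 0.744 (0.434 to 1.2) and 1.07 (0.477 to 2.09) in the endothelium. Btg2, an antiproliferative p53 target, was lower in the cells at 10 or more of both classes and libraries, with ratios of 0.478 (0.266 to 0.794) and 0.36 (0.144 to 0.748) and of 0.207 (0.112 to 0.349) and 0.255 (0.0930 to 0.561). Cdkn2c and Cdkn2d, CDK4 and CDK6 inhibitors, were higher in them: Cdkn2c by 9.17-fold (6.17 to 13.4) and 5.16-fold (2.33 to 10.3) and Cdkn2d by 8.24-fold (5.58 to 12.0) and 4.53-fold (2.30 to 8.23) in the mesenchyme. Cks2, a CDK subunit, was 37.1-fold (26.8 to 51.8) and 43.8-fold (27.4 to 71.3) higher there.

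Between the libraries, the G2/M level of mesenchymal cells was somewhat higher in the Lmx1b library, mostly by less than 2-fold. Of the measured G2/M genes 1 of 24 was at least 2-fold higher in the Lmx1b library (all genes: 0.77% higher, 0.932% lower), with a median log2 ratio of 0.65 against -0.01 for all genes, and of the S genes 0 of 13. The gene was Ube2c, at 35.3 and 17.6 CPM. In endothelial cells 7 of 25 G2/M genes were at least 2-fold higher in the Lmx1b library (all genes: 0.927% higher, 0.624% lower) and 0 of 15 S genes. S genes were thus the steadier list between libraries in both classes, with median log2 ratios of 0.18 and 0.22. In mural cells 17 of 21 G2/M genes were higher in the Lmx1b library (all genes: 3.75% higher, 1.36% lower), and in macrophages 21 of 25 (all genes: 4.04% higher, 1.38% lower). The mural and macrophage counts rest on 11 and 2, and on 8 and 5, cells at 10 or more G2/M UMIs. In the Mest and Gldn gate 24 of 24 measured G2/M genes were higher in the Lmx1b library (all genes: 2.83% higher, 2.22% lower), and Cdkn1a was lower there, at 9.40 and 30.5 CPM. That gate had 7 and 3 cells at 10 or more. In the Cilp2 and Thbs4 gate 25 of 25 G2/M genes were higher (all genes: 1.43% higher, 1.13% lower), on 13 and 2 such cells. In both gates some G2/M genes were under 5 CPM in the Pdgfra library, and those measured passed the cut only through the Lmx1b library. Examples are Cdc20, Nusap1 and Kif23, with 17, 14 and 13 UMIs in the Pdgfra cells of the Cilp2 and Thbs4 gate. The full counts are thus partly set by the cut. In the nail mesenchyme gate 3 of 3 G2/M genes were higher in the Pdgfra library (all genes: 4.92%), on 0 and 1 cells at 10 or more. In chondrocytes 19 of 19 were (all genes: 5.94%), on 0 and 2. No G2/M gene was above 3.61 CPM in Lmx1b chondrocytes. The chondrocyte genes thus passed the 5 CPM cut only through the Pdgfra library, so their direction was set by the cut and is no result. In keratinocytes 1 of 25 G2/M genes were at least 2-fold higher in the Pdgfra library, and of the S genes 8 of 16 (all genes: 14.1%; 7.72% higher in the Lmx1b library). Mcm6 was at 13.4 and 50.5 CPM and Uhrf1, which maintains DNA methylation at replication, at 15.1 and 51.7 CPM. The keratinocytes of the libraries were not alike in make-up, since cells expressing the hard keratins Krt42, Krt35 and Krt36 numbered 6 of 70 and 25 of 53; among the others the cycling share was 23.4% (15 of 64 cells, 13.8 to 35.7%) and 46.4% (13 of 28 cells, 27.5 to 66.1%). In clusters built without cell cycle genes the keratinocytes of the libraries lay mostly apart, 54 Lmx1b and 1 Pdgfra cells in one cluster and 18 and 52 in another, so the shares and the S genes compare largely different clusters.

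Genes of the cycle outside the 48 were taken from lists of 80 genes by role. S genes off the list were at least 2-fold higher in endothelial than in mesenchymal cells for 10 of 17 and 8 of 15 measured, and G2/M genes off the list for 4 of 16 and 0 of 11, against 17.3% of all genes in each library. The G2/M counts off the list were thus near that share or below it. Rad51ap1, a recombination factor, was 3.71-fold (2.91 to 4.74) and 3.10-fold (2.17 to 4.43) higher. It was at 4.31 and 4.22 CPM in mesenchymal cells and passed the 5 CPM cut only through endothelial cells. Chaf1b, of the chromatin assembly factor, was 3.17-fold (2.55 to 3.93) and 2.64-fold (1.90 to 3.65) higher. In the RB and E2F group Rb1 was 2.27-fold (1.93 to 2.65) and 2.47-fold (2.00 to 3.04) higher in endothelial cells, where Cdk6 was lower, with ratios of 0.442 and 0.266. Cdk6 was at 165 and 94.9 CPM in Schwann cells. E2f1 was 3.69-fold (2.88 to 4.70) and 5.12-fold (3.96 to 6.59) higher in macrophages than in mesenchymal cells, and Mdm2, the p53 ligase, 4.49-fold (3.89 to 5.16) and 3.75-fold (3.16 to 4.44). By Pearson's correlation of log2 (CPM + 1) with the summed G2/M level over 21 classes of the 2 libraries, the 10 genes of 10725 ranked that were most like it were Ckap2l (r = 0.975), Hmmr, Spc25, Pbk, Smc2, Shcbp1, 2810417H13Rik (Pclaf), Racgap1, Melk and Casc5 (r = 0.958). The points share their libraries, and the subtype gates are parts of the mesenchyme, so r is a description.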

How the data were processed

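The deposited files hold gene by cell matrices of raw UMI counts, which the authors obtained from Cell Ranger 4.0.0 against mm10 plus TdTomato, per the file headers and the submitters' processing notes; other upstream settings are not given in the sources used here. Python 3.11.15, numpy 2.4.6, scipy 1.17.1 and scanpy 1.11.5 were used. Cells needed 500 genes, 5000 UMIs and no more than 10% mitochondrial UMIs, and were thinned to 5000 UMIs for calls per cell. A class score was the mean log of marker counts scaled to 10000 UMIs. Cells passing gates of 2 classes were left out, with the exceptions given above for mesenchymal scores, chondrocytes, osteoclasts and macrophages. This was also how doublets were treated. Levels were CPM of summed counts with exact Poisson intervals, and shares had exact Clopper-Pearson intervals; UMIs of 1 cell go together, so CPM intervals are too narrow. Genes needed 5 CPM over both sides of a comparison. Scripts were tested on simulated data.

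Members and lists were chosen with earlier results of these data known. Gate thresholds, the call at 10 or more G2/M UMIs and the call at 5 S UMIs were set after the values were seen. Genes named in every class were the 3 G2/M and 3 S genes with the highest mean CPM, Mki67, the D-type and E-type cyclins, Stmn1, Hmgb2 and Cdkn1a; others were taken from those with the largest ratios, and Gins2, Kif11, Uhrf1, Aurkb, Cdk1, Cdc20 and Ccnb1 were named as examples of their roles after their values were seen. Alternatives covered the cell filter, thinning depth, call, classes, doublets, summation, low values and fold.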

Additional observations from a re-analysis of the deposited data

Results flagged for a closer look

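Some subtype gates lay above the whole mesenchyme in one library and below it in the other, and these differences between libraries were not tested. The G2/M level of the Mest and Gldn gate was 2.23 and 0.445 times that of all mesenchymal cells (Lmx1b and Pdgfra libraries), and its S level 1.45 and 0.883 times. For the Cilp2 and Thbs4 gate the G2/M ratios were 1.42 and 0.571 and the S ratios 1.30 and 0.806. For the osteoblast precursor gate the G2/M ratios were 0.915 and 1.11. The chondrocyte G2/M ratios were 0.0417 and 1.64, and 1 cell held 77.8% of the G2/M UMIs behind the second.

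G2/M transcripts also stood in barcodes that the comparisons left out. Keratinocytes under 5000 UMIs had 985 and 923 CPM, and those with hard keratins 628 and 979 CPM (19 and 63 cells). Barcodes under 500 genes had 381 and 392 CPM.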

How the results depend on the processing

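No paired analysis was possible because each mouse line has 1 library and no result comes from a test. The endothelial share exceeded the mesenchymal one under all 9 alternatives in each library, by 2.37 to 17.1 percentage points, as did the macrophage and keratinocyte shares. Mural cells were below mesenchymal cells under 1 and 4 of 9 (Lmx1b and Pdgfra libraries), Schwann cells under 1 and 0, and Pdgfra chondrocytes turned above under 4 of 9. The mesenchymal share moved from 8.33 and 7.02% (Lmx1b and Pdgfra libraries) to 13.9 and 13.9% when thinned to 10000 UMIs, and to 4.61 and 3.61% at 10 or more G2/M UMIs; in the Lmx1b library it was 6.31% when thinned to 2000 UMIs and 5.81% at 3 or more. The endothelial share moved from 15.1 and 13.5% to 28.4 and 21.8% when thinned to 10000 UMIs, to 11.1 and 9.56% at 3 or more and to 8.27 and 5.98% at 10 or more; in the Lmx1b library it was 25.9% under a stricter cell filter (1000 genes, 5% mitochondrial UMIs) and 11.0% when thinned to 2000 UMIs. The S to G2/M ratio of mesenchymal cells moved from 0.39 and 0.53 to 0.49 and 0.59 as a mean over cells and to 1.96 and 1.65 without cells at 10 or more G2/M UMIs; in the Pdgfra library it was 0.81 with the stricter cell filter and 0.43 with classes from clusters. The ratio thus crossed 1 without those cells, whose choice by G2/M UMIs lowers the denominator. Members at least 2-fold apart, in either direction, between endothelial and mesenchymal cells numbered 22 of 46 and 18 of 41 measured, and 40 and 31 at 1.5-fold. Of all genes 17.3 and 17.3%, and 33.6 and 33.5% at 1.5-fold, were higher in endothelial cells. These shares leave out genes lower there, which the member counts include, so counts and shares are not like for like. In the Lmx1b library the members apart numbered 40 of 46 with the stricter cell filter (all genes, higher only: 19.1%). Without cells at 10 or more G2/M UMIs they numbered 11 of 21, with 1 lower in endothelial cells (all genes, higher only: 17.5%). The Rrm2 ratio then passed from 1.49 to 0.907 (1.08 to 0.424 in the Pdgfra library). Of the other shares, mural ones moved under 4 of 9 alternatives in each library, macrophage under 2 and 4, Schwann under 1 and 3, chondrocyte under 6 and 1 and keratinocyte under 0 and 2. The calls at 10 or more, leaving out those cells, and another thinning seed were chosen after seeing the data; the causes were not tested. With 1 library per line, intervals cover counting error only, and classes under 50 cells carry wide ones.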
